A study of Homo sapiens with 24 samples.

Results

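The AP-1 family genes described here are JUN, JUNB, JUND, FOS, FOSB, FOSL1, FOSL2, BATF, BATF3 and ATF3, which encode 10 basic leucine zipper (bZIP) transcription factors. Regions of changed chromatin accessibility were assigned to a gene where they lay within 10000 bp of one of its annotated transcription start sites (TSS) or overlapped the gene itself. By this rule 10 of the 26369 distinct regions in the deposited lists belonged to the family. They lay at 5 of the 10 genes: 4 at JUNB, 2 at FOSL1, 2 at ATF3, 1 at JUND and 1 at FOSB. JUN, FOS, FOSL2, BATF and BATF3 had none.

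ATAC-seq, in which a transposase cuts and tags open DNA, was done on OCI-LY3 and VAL, established cell lines of diffuse large B-cell lymphoma (DLBCL). Cells were grown with 30 nM AZD4573, an inhibitor of the transcription kinase CDK9, for 3 or 8 h, and cells of the same line labelled 0 h are the controls. The names of the lists call the control DMSO (vehicle), and it is taken here to be the 0 h group, which the sources do not state. Each of the 6 groups held 4 libraries, of which 2 were labelled as standard ATAC-seq from 50000 cells and 2 as Fast-ATAC from 5000 cells, so 24 libraries in all. The labels name no transgene or deletion, and OCI-LY3 and VAL are 1 line each, so that they stand for themselves and not for a class of lymphoma.

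AP-1 is not 1 protein but a set of dimers. JUN proteins pair with each other or with FOS, BATF or ATF partners through the leucine zipper, and the paired basic regions bind DNA at the AP-1 site or at the related cyclic AMP response element (CRE). Several of these genes are immediate early genes, transcribed within minutes of a stimulus and dependent on release of paused RNA polymerase II, the step that CDK9 drives. In B cells, BATF and IRF4 or IRF8 bind composite sites, and JUNB and BATF3 are well known from other lymphomas.

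Each line was compared with its own 0 h cells at 3 h and at 8 h, which gives 4 comparisons, and each comparison has a list of increased and a list of decreased regions. The lists give positions without a value for any library. No fold change, spread between libraries or test of a family member can therefore be given, the depth is unknown, and the identity of the cells could not be checked against marker levels. A gene without a region may have had no peak at all or a change below the authors' thresholds. Both comparisons of a line use the same 0 h libraries, so a region listed at both times is not independent support for itself. All positions are on hg19.

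The regions at the family were mostly regions of increased accessibility. Over the 8 lists they made 20 entries as increased and 3 as decreased, and 9 of the 10 regions were increased in at least 1 comparison. Over all regions, 56.3% of the 37071 entries were increased, and 51.9% of the distinct regions were increased in at least 1 comparison. The entries of the family are not independent, since 1 region can stand in several lists. VAL, whose lists are longer, held more of the entries: 6 of its 3545 increased regions at 3 h and 9 of its 11121 at 8 h lay at these genes, with 0 of 1786 and 0 of 9260 decreased regions. In OCI-LY3, 2 of 1852 regions increased at 3 h and 3 of 4367 at 8 h belonged to the family, together with 1 of 1677 regions decreased at 3 h and 2 of 3463 at 8 h.

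**Figure D1:**
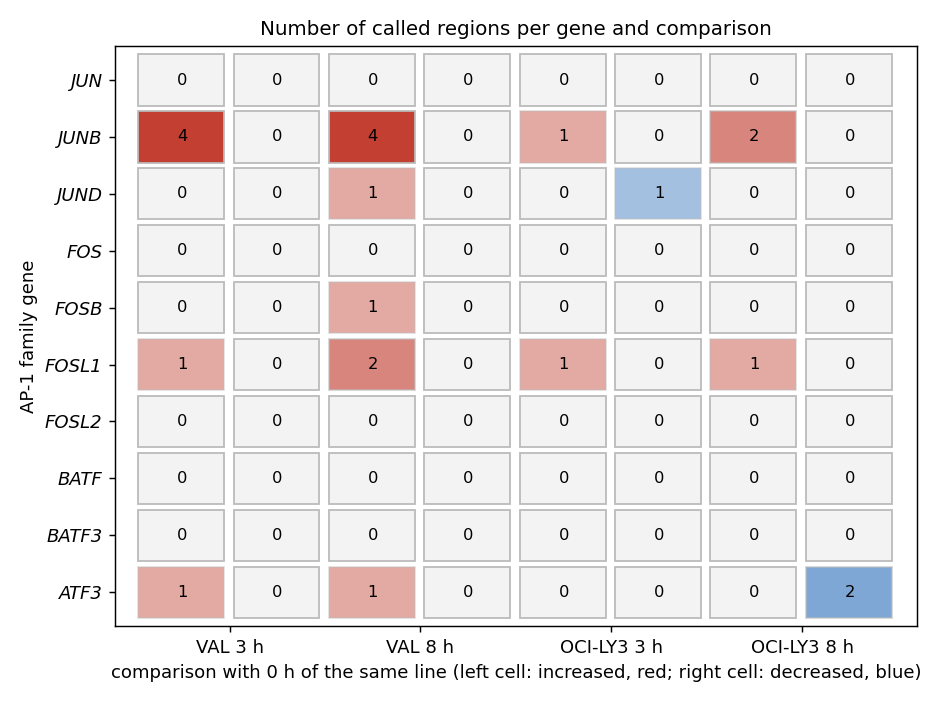
Number of called regions for each AP-1 family gene (rows) in each comparison with 0 h (columns), with increased regions in the left cell of a pair and decreased regions in the right. JUNB holds 4 increased regions in VAL cells at each time, and the 5 genes with only zeros are JUN, FOS, FOSL2, BATF and BATF3.

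Counted by gene, 3 of the 10 members (JUNB, FOSL1 and ATF3) had an increased region in VAL cells at 3 h, against 16.9% of all 20163 protein-coding genes by the same rule. At 8 h the VAL count was 5 members, with JUND and FOSB added, against 36.9% of all genes. No member had a decreased region in VAL, where 4.70% of all genes had one at 3 h and 14.2% at 8 h. In OCI-LY3, JUNB and FOSL1 had an increased region at both times, 2 of 10 members against 10.6% of genes at 3 h and 19% at 8 h. JUND was the 1 member with a decreased region in OCI-LY3 cells at 3 h (5.29% of all genes) and ATF3 the 1 member at 8 h (8.18% of all genes). With 10 members, each gene moves a share by 10 percentage points, and the counts lie near the background in both lines. Taking all lists together, 5 of 10 members (50.0%) and 57.0% of all protein-coding genes had at least 1 region.

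Chromosome 19 carries JUNB, JUND and FOSB and 6 of the 10 regions, and its genes had increased regions more often than genes elsewhere. Of 1480 protein-coding genes on chromosome 19, 37.6% had an increased region in VAL cells at 3 h and 64.9% by 8 h, and 22.1% and 42.4% had one in OCI-LY3. The shares on the other chromosomes were 15.3%, 34.7%, 9.74% and 17.1%. Decreased regions were rare there: between 0.203% and 0.676% of chromosome 19 genes had one. Its part in the family's counts was not tested.

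**Figure D2:**
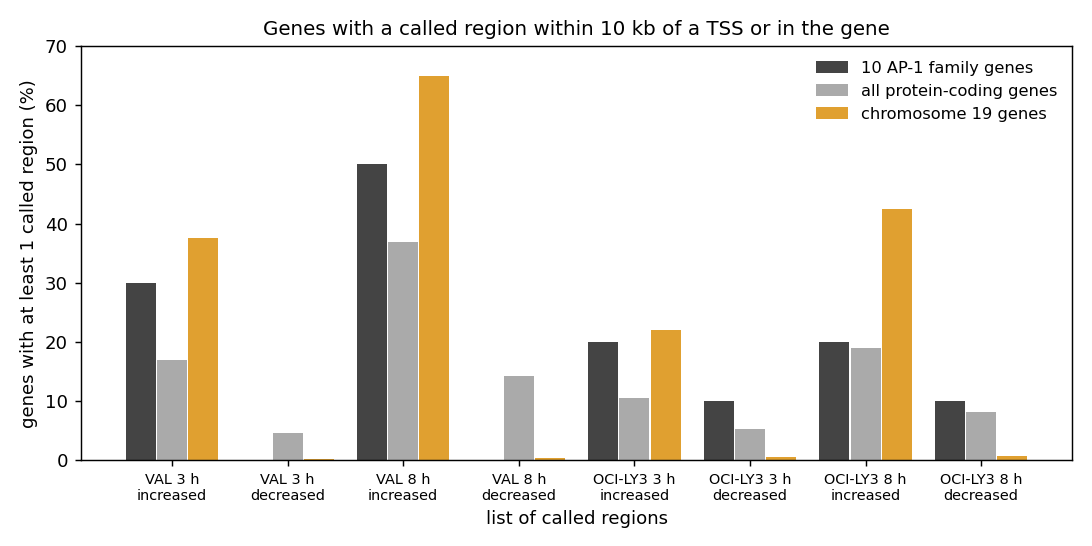
Share of genes with at least 1 called region, in percent, for the 10 AP-1 family genes (black), all protein-coding genes (grey) and the genes of chromosome 19 (orange) in each of the 8 lists. The family reaches 5 of 10 genes in the VAL 8 h increased list and 0 in both VAL decreased lists, and the chromosome 19 genes stand highest in every increased list.

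Accessibility within 1000 bp of a TSS changed at JUNB and FOSL1. JUNB had an increased region there in all 4 comparisons and FOSL1 in VAL cells at 8 h alone. The counts of members were thus 1 in VAL cells at 3 h (10.3% of all genes), 2 in VAL cells at 8 h (25.1%), 1 in OCI-LY3 cells at 3 h (5.92%) and 1 in OCI-LY3 cells at 8 h (9.30%). No member had a decreased region so close to its TSS, and few genes did: 0.322% of all genes in VAL cells at 3 h, 3.38% at 8 h, and 0.694% and 1.28% in OCI-LY3 cells.

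JUNB encodes a JUN protein that dimerises with FOS and BATF proteins. The gene has no intron, spans 1830 bp on the plus strand (chr19:12902300-12904129, ENSG00000171223) and was the member with the most regions. The region chr19:12902033-12905000 covered all of the gene and its TSS and was increased in VAL and in OCI-LY3 cells at 3 h and 8 h. Of all 26369 regions, 615 (2.33%) were increased in all 4 comparisons, and 558 genes (2.77%) had a TSS covered by increased regions in all 4. At 2968 bp it was wider than 99.9% of the regions, the widest of which measured 3026 bp.

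Upstream of JUNB, chr19:12900078-12901200 ended 1100 bp before the TSS, inside an intron of the neighbouring gene HOOK2, which encodes a microtubule linker protein. It was increased in VAL cells at 3 h and 8 h and in OCI-LY3 cells at 8 h. The region chr19:12892979-12894098 also lay in HOOK2 outside its annotated exons, 8202 bp upstream of JUNB and 6545 bp from the nearest HOOK2 TSS. It was increased in VAL cells at both times.

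The fourth region, chr19:12911939-12912957, lay 9639 bp downstream of the JUNB TSS and covered the TSS of PRDX2, a peroxidase gene, and of THSD8, so that it is a promoter region of other genes. It too was increased in VAL cells at both times. JUNB thus held 4 increased regions in VAL cells at 3 h, a number reached by 60 genes (0.298%), and 4 at 8 h, reached by 472 genes (2.34%). In OCI-LY3 it held 1 at 3 h (reached by 2147 genes, 10.6%) and 2 at 8 h (880 genes, 4.36%).

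The sequence before the JUNB TSS is shown because this promoter lay in a region increased in every comparison. It is the 250 bases of the plus strand at chr19:12902050-12902299, read 5′ to 3′ from hg19, all of it inside the called region. Capitals mark TGACG, the short form of the CRE, whose 5′ end lies 137 bases before the TSS. No full AP-1 or CRE site was matched in it.
JUNB promoter: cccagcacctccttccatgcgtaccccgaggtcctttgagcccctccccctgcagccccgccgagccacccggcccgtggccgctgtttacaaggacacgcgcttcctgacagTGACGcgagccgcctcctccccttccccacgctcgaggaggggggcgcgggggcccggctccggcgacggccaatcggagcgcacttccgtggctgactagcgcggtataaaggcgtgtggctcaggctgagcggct

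The AP-1 sites of the flanking JUNB regions are shown because JUN and FOS proteins bind such sites. All are on the plus strand of hg19, with the AP-1 site in capitals (TGACTCA or its reverse complement TGAGTCA). The stretch from the farther upstream region in HOOK2 holds 3 sites at 8423, 8359 and 8329 bp before the JUNB TSS. Of all regions, 103 (0.391%) hold 3 or more. The region nearer to JUNB holds 1 AP-1 site 1964 bp before the TSS and, 1529 bp before it, 1 serum response element (SRE, in capitals), the site bound by SRF at many immediate early genes.
chr19:12893860-12893982: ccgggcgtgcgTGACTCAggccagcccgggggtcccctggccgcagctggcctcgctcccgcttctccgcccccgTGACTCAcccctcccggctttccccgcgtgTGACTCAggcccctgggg
chr19:12900319-12900347: agtggggccccTGACTCAcatgagtgagt
chr19:12900751-12900782: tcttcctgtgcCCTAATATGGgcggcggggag
chr19:12912158-12912186: ggccctatgacTGAGTCAgcacggcggag

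FOSL1 encodes FRA1, a FOS-related protein that lacks the transactivation domain of FOS. The gene lies on the minus strand of chromosome 11 (chr11:65659520-65668044). Its TSS was covered by chr11:65667437-65668428, which was increased in VAL cells at 8 h and in no other list. The other region, chr11:65657815-65659349, was increased in all 4 comparisons, but it lay 8510 bp downstream of the FOSL1 TSS, past the end of the gene, and covered the TSS of CCDC85B. FOSL1 therefore has the same calls as JUNB by the 10000 bp rule, a pattern shared by 1047 protein-coding genes (5.19%), while within 1000 bp of a TSS it has the pattern of VAL cells at 8 h alone, as 2464 genes did (12.2%).

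An AP-1 site overlaps the FOSL1 TSS itself and is shown in capitals, on the plus strand, which is opposite to the gene. The site lies at chr11:65667854-65667860, in the exon that carries the start site.
chr11:65667843-65667871: ctgctgggttcTGACTCAcccgcgccgtg

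**Figure D3:**
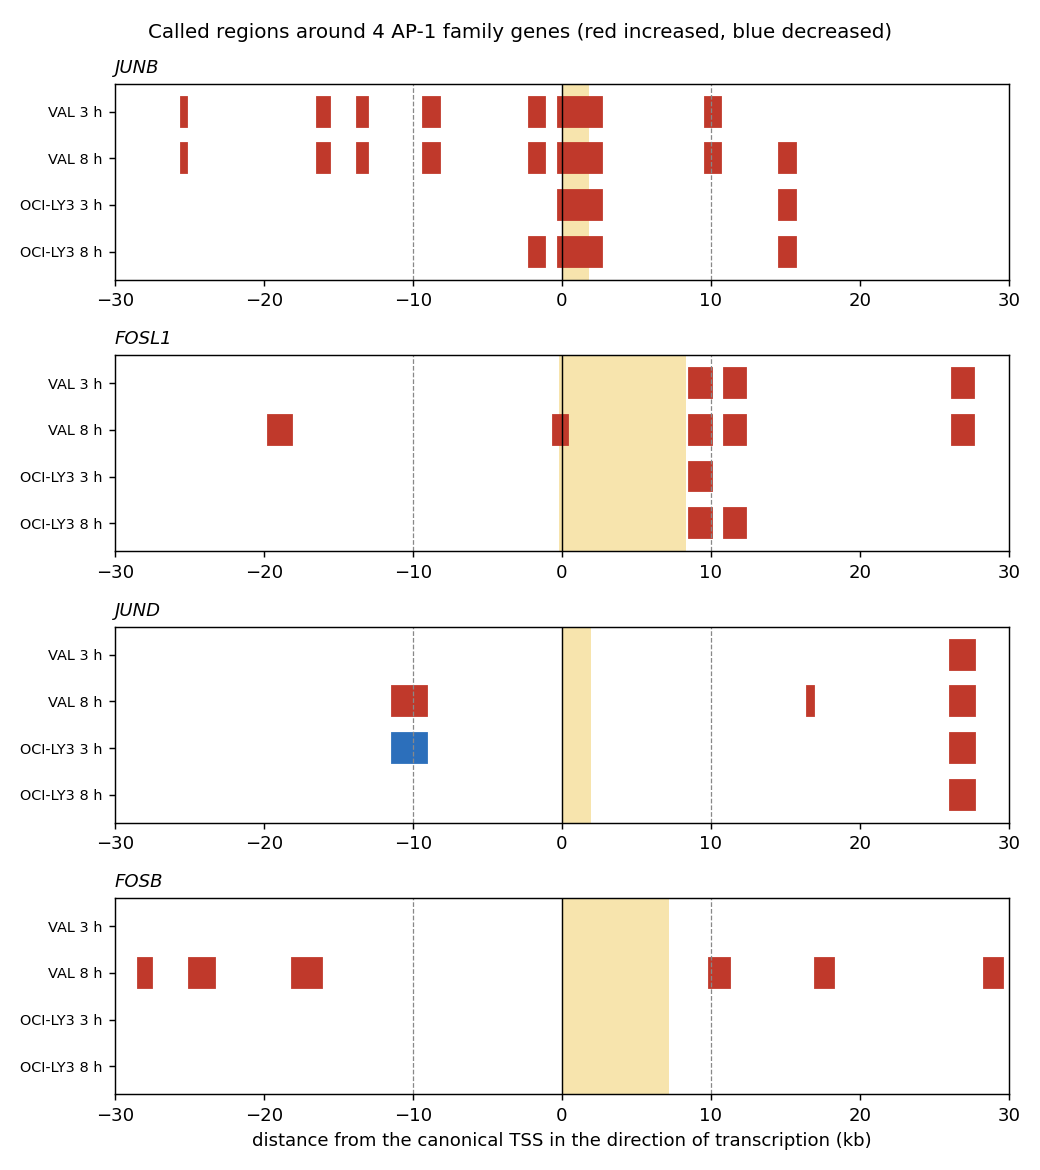
Called regions around JUNB, FOSL1, JUND and FOSB, plotted by distance from the canonical TSS in the direction of transcription (kb) for the 4 comparisons, with increased regions in red, decreased regions in blue, the gene shaded and dashed lines at 10 kb. JUNB has a region over the gene in all 4 rows, and the JUND region upstream of the gene is red in VAL cells at 8 h and blue in OCI-LY3 cells at 3 h.

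JUND, whose protein is the JUN family member made in most resting cells, and FOSB, whose product resembles FOS, had 1 distal region each. The JUND region chr19:18401481-18403833 lay 9049 bp upstream of the TSS in a stretch with no annotated gene. It was increased in VAL cells at 8 h and decreased in OCI-LY3 cells at 3 h, and it was not listed in VAL cells at 3 h or in OCI-LY3 cells at 8 h. The call in both directions was shared by 38 of all regions, and 71 genes (0.352%) had the pattern of JUND. The opposite calls were made at different times, and the difference between the lines was not tested. The FOSB region chr19:45981119-45982512 was increased in VAL cells at 8 h. It lay 7948 bp from the nearest annotated FOSB TSS and covered the TSS of ERCC1, a DNA repair gene. An increase in VAL cells at 8 h and nothing else was a frequent pattern, found at 2704 genes (13.4%).

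ATF3 encodes a stress-induced bZIP factor that can repress or activate, alone or with JUN proteins, and was the only member with decreased regions in OCI-LY3 cells at 8 h. The gene spans 55444 bp of the plus strand (chr1:212738676-212794119) and has 4 annotated TSS. The region chr1:212768816-212770513 lay in an intron, 11590 bp upstream of the canonical TSS. It was increased in VAL cells at 3 h and 8 h and decreased in OCI-LY3 cells at 8 h, and 13 of all regions had these calls. The region chr1:212731581-212732975 lay 5701 bp before the most upstream ATF3 TSS, over the TSS of a long noncoding RNA gene (ENSG00000288007), and was decreased in OCI-LY3 cells at 8 h. The calls at ATF3 were shared by 19 protein-coding genes (0.0942%).

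Opposite calls in the lines were uncommon among all regions. Of 4099 regions called in both lines, 193 (4.71%) were called in opposite directions, 125 of them increased in VAL and decreased in OCI-LY3. At the AP-1 family genes 5 regions were called in both lines, 3 in the same direction and 2, at JUND and ATF3, in opposite ones. A further 4 regions were called in VAL alone and 1 in OCI-LY3 alone. Since each line was compared with its own 0 h libraries by the authors, no test of a difference between the lines can be made from the lists.

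The sites in both ATF3 regions are shown because the regions carry matches to AP-1 and, in the upstream one, to the full CRE (TGACGTCA). On the plus strand, capitals mark the AP-1 site and then the CRE of the upstream region, 49728 and 49690 bp before the canonical TSS, followed by the AP-1 sites of the intronic region, 12996 and 12242 bp before it. Both motifs together were found in 79 of all regions (0.300%).
chr1:212732358-212732424: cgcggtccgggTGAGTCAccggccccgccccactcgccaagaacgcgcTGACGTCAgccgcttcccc
chr1:212769090-212769118: tctgctgtcacTGACTCAacattcttaat
chr1:212769844-212769872: aacacagacagTGACTCAggtggaacatt

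ATF3 and BATF3 lie on the same arm of chromosome 1, with the gene GARIN4 between them and 91079 bp between their canonical TSS. From the region upstream of ATF3 to BATF3, 5 regions were called. In VAL 2 of them were increased and 0 decreased, while in OCI-LY3 4 were decreased and 0 increased. This split was seen in a chosen stretch and has no background beside it, and past BATF3 it did not continue: the nearest region increased in OCI-LY3 lay 91194 bp from the BATF3 TSS and the nearest decreased in VAL 131505 bp from it. Beyond the end of ATF3, chr1:212802802-212804336 was decreased in OCI-LY3 cells at 3 h and 8 h, chr1:212808675-212809121 was increased in VAL cells at 8 h, and chr1:212809258-212810578 was decreased in OCI-LY3 cells at 8 h. These 3 regions were outside the rule for ATF3 and for BATF3, whose protein pairs with JUN proteins and is needed for a class of dendritic cells.

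**Figure D4:**
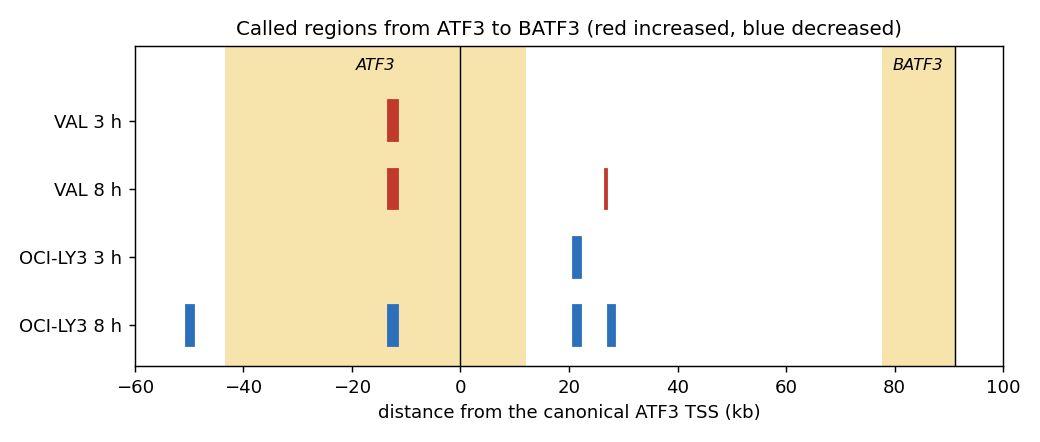
Called regions from upstream of ATF3 to BATF3 by distance from the canonical ATF3 TSS (kb) in the 4 comparisons, with increased regions in red, decreased regions in blue, the genes shaded and black lines at both canonical TSS. The VAL rows hold 2 increased regions and the OCI-LY3 rows 4 decreased ones.

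The other 5 members had no called region, as did 43.0% of all protein-coding genes. JUN and FOS, the founding AP-1 genes, had their nearest regions 30959 bp (decreased in VAL cells at 8 h) and 28637 bp (increased in VAL cells at 8 h) from a TSS. For FOSL2, which encodes FRA2, the distance was 30315 bp, to a region increased in VAL cells at 8 h. BATF, whose protein binds with IRF4 and IRF8 in B and T cells, had its nearest region at 44907 bp, increased in VAL cells at 8 h, and BATF3 had its nearest at 62604 bp, decreased in OCI-LY3 cells at 8 h.

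The calls around each member are given with no background, since the same count was not made for other genes. Within 150000 bp of the canonical TSS, all 26 regions at JUNB, all 17 at FOSB and all 11 at FOSL1 were increased wherever they were called, and JUND had 21 regions, of which 1 was also decreased. JUN had 3 regions, all decreased, and BATF3 had 7, of which 5 were decreased in some comparison and 3 increased. ATF3 had 10, of which 5 were increased and 6 decreased in some comparison. FOS had 3 regions, 2 increased and 1 decreased, FOSL2 had 3, all increased, and BATF had 5, of which 2 were increased and 3 decreased. The windows of ATF3 and BATF3 overlap, as do those of FOS and BATF, so some regions are counted at both genes of a pair. Most of the decreased regions of BATF3 are also counted at ATF3. For JUNB the nearest decreased region of VAL lay 10371358 bp away and that of OCI-LY3 5073549 bp away, both on chromosome 19, where decreased regions were rare.

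**Figure D5:**
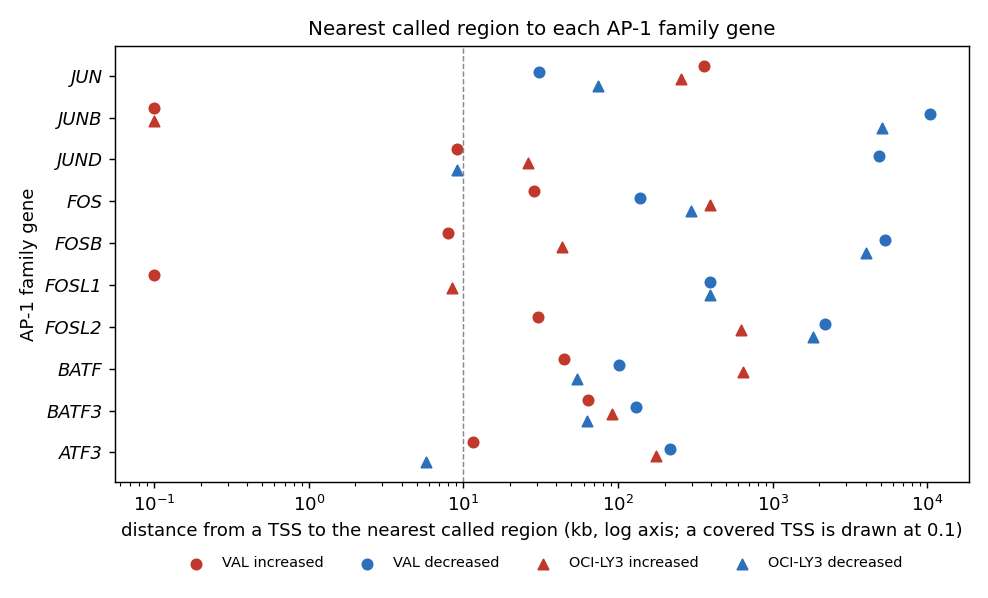
Distance (kb, log axis) from a TSS of each AP-1 family gene to the nearest called region of each kind: increased (red) or decreased (blue) in VAL (circles) or OCI-LY3 (triangles) at either time, with a dashed line at 10 kb and a covered TSS drawn at 0.1. The TSS of JUNB is covered in both lines and that of FOSL1 in VAL, while every point of JUN, FOS, FOSL2, BATF and BATF3 lies beyond the dashed line.

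The limit of 10000 bp left some regions just inside and others just outside. The outermost inside were at 9639 bp (JUNB), 9049 bp (JUND) and 8510 bp (FOSL1), and the closest outside at 10890 bp (FOSL1), 13010 bp (JUNB), 14282 bp (ATF3), 15095 bp (FOSB) and 16452 bp (JUND). For 6 of the 10 regions the nearest TSS of a protein-coding gene was that of the member, and for 4 it belonged to another gene. The regions ranged from 992 to 2968 bp in width, with a median of 1394 bp against 1309 bp over all regions. Their GC content ran from 42.2% at the ATF3 intron to 70.4% at the JUNB upstream region, and the median over all regions was 47.5%.

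AP-1 sites were found in 6 of the 10 regions and in 19.3% of all regions (16.6% of the increased and 22.1% of the decreased). Of the 6, 3 were at JUNB, 1 at FOSL1 and 2 at ATF3. The JUND and FOSB regions, the wide region over JUNB and the FOSL1 region over the CCDC85B TSS held none. The CRE was in 1 region, against 1.68% of all, and the SRE in 1, against 6.75%, while the NF-kB site was in 0, against 2.51%. TGACG, which the full CRE contains on both strands, was in 9 of the 10 regions and 41.1% of all. The regions were not matched to the others by width or GC content. In the 250 bases before the canonical TSS, an AP-1 site occurred at 3.06% of protein-coding genes and at no member, and a full CRE at 2.40% of genes and, among the members, at JUND, 200 bases before the TSS. TGACG occurred in 8 of the 10 members' promoters (not in those of BATF and BATF3) and in 25.3% of all. A match of letters is no evidence of binding.

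The wider AP-1 pathway was followed through 63 genes. They are further bZIP partners, IRF partners of BATF, and mitogen-activated protein kinases (MAPK) with the kinases upstream of them. The rest are the transcription factors upstream of FOS and JUN, MAPK phosphatases and known target genes. By the 10000 bp rule 16 (25.4%) had an increased and 7 (11.1%) a decreased region in VAL cells at 3 h, and 29 (46.0%) and 15 (23.8%) at 8 h. In OCI-LY3 the numbers were 10 (15.9%) and 5 (7.94%) at 3 h, and 18 (28.6%) and 4 (6.35%) at 8 h. The shares of all genes given above for the same lists were lower in all but the last, and 47 of the 63 (74.6%) had a region of some kind. Within 1000 bp of a TSS, 27 of the 63 had an increased and 4 a decreased region in VAL cells at 8 h. The shares of all genes were 25.1% and 3.38%. In OCI-LY3 cells at 8 h the numbers were 10 and 0, against 9.30% and 1.28%. Genes are named below for an increase over a TSS in all 4 comparisons but for a decrease in any. The named genes therefore do not show this balance. Gene length was not matched.

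Among the 19 kinases, 13 had an increased and 4 a decreased region in VAL cells at 8 h, where 36.9% and 14.2% of all genes did, and 3 and 1 in OCI-LY3 cells at 8 h, where 19% and 8.18% did. MAPK3, which encodes the kinase ERK1, had an increased region over a TSS in all 4 comparisons, as JUNB did. MAPK10 (the kinase JNK3) and MAP2K6 (an activator of p38 kinases) had a decreased region over a TSS in VAL cells at 8 h. By the 10000 bp rule MAPK10 also had increased regions in VAL cells at both times, and MAP2K6 a decreased one in OCI-LY3 cells at 8 h. Of the 8 phosphatases, which switch MAPK off, 2 had an increased and 2 a decreased region in VAL cells at 8 h, and 1 and 0 in OCI-LY3 cells at 8 h.

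Of the 8 upstream transcription factors, 4 had an increased and 2 a decreased region in VAL cells at 8 h, and 5 and 0 in OCI-LY3 cells at 8 h, beside the same shares of all genes. MEF2C, a MADS-box factor of mature B cells, had a decreased region over a TSS in VAL cells at 8 h. Its calls by the 10000 bp rule ran in opposite directions, decreased in VAL and increased in OCI-LY3 cells at both times. Among the 15 bZIP partners, 6 had an increased and 6 a decreased region in VAL cells at 8 h (36.9% and 14.2% of all genes), and 5 and 3 in OCI-LY3 cells at 8 h (19% and 8.18%). CREM, a CRE-binding factor, had a decreased region over a TSS in VAL cells at 8 h. MAFG, a small MAF protein, IRF8, a BATF partner, and MAPK3 had the same calls over the 8 lists as JUNB and FOSL1. That pattern was found at 5.19% of all protein-coding genes. Other pathway genes had the calls of FOSB (13.4% of all genes) or, like JUN and FOS, no call (43.0%). Of the 11 target genes, 3 had an increased region at 8 h in each line, against 36.9% of all genes in VAL and 19% in OCI-LY3 cells, and 1 had a decreased region in VAL cells at 8 h.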

How the data were processed

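ATAC-seq was performed in 24 libraries. Alignment to hg19 by the authors used Bowtie2. MACS2 peaks of the separate samples were merged, and bedtools counted the reads in them. The authors tested each treated group against its control with DESeq2. The lists name that control DMSO and the labels give 0 h, and both are taken as the same group here. What they deposited is 8 lists of positions in bp, with no score or fold and 0 columns of per-sample values. The sources differ on the adjusted p limit, and on the cell number used for Fast-ATAC, and the versions of the tools used for ATAC-seq are not given in the sources used here. Effects of the library protocols cannot be told apart in the lists.

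Regions were matched to GENCODE 44 protein-coding genes lifted to GRCh37, with the TSS of transcripts tagged basic. Python 3.11.15, numpy 2.4.6, pysam 0.24.0 and matplotlib 3.10.9 were used. AP-1, CRE, SRE, NF-kB and TGACG motifs were searched on both strands with 0 mismatches. TGACG was added after values were seen, and it also matches inside every CRE. The assignment of regions and the motif search were tested on simulated data. No statistical test was made.

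The members and lists were chosen with earlier results of these data known. All 10 members are named. Pathway genes are named where a TSS is covered by an increased region in all 4 comparisons or a decreased region in any, or where their calls equal a member's, and 1 result under this rule is not reported here. Alternatives were the distance, the annotated TSS, the gene body, the nearest TSS, merging of regions within 1000 bp, chromosome 19 and the motif window.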

Additional observations from a re-analysis of the deposited data

How the results depend on the processing

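Of 72 alternatives, 51 left the count of members or regions within 1.5 times and 21 moved it. Settings that can only remove regions or members could not move a count of 0, as for decreased regions in VAL. Leaving out chromosome 19 was bound to lower the counts that rest on its members. The tally is therefore no measure of stability. With 5000 bp in place of 10000 bp, the members with an increased region numbered 3 in VAL cells at 8 h and 1 in OCI-LY3 cells at each time, those with a decreased region in OCI-LY3 cells at 3 h 0, and the distinct regions 4. With 25000 bp the decreased count in OCI-LY3 cells at 3 h was 2 and the distinct regions 22. Counting only regions whose nearest TSS is the member's gave 1 increased member in OCI-LY3 cells at each time and 6 distinct regions. No share of all genes is given for these settings, so no move relative to it can be read from the counts. Without the chromosome 19 members, which leaves fewer genes, the increased counts were 2 in VAL cells at 8 h and 1 in OCI-LY3 cells at each time, the decreased count in OCI-LY3 cells at 3 h was 0, and the increased counts within 1000 bp of a TSS were 0 in VAL cells at 3 h, 1 at 8 h and 0 in OCI-LY3 cells at each time. In the 200 bp around each region's midpoint, AP-1 sites were in 2 regions (3.66% of all regions), the CRE in 0 (0.406%) and the SRE in 0 (1.02%).

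No paired analysis was possible because single libraries have no values in the lists. For the same reason leaving out a library and other thresholds were not run, and depth is unknown.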
